A study of Mus musculus with 9 samples.

Results

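The 10 genes described here serve autophagy and mitophagy, and were taken by gene name from the deposited table as Sqstm1, Map1lc3b, Gabarapl1, Wipi1, Becn1, Ulk1, Pink1, Bnip3l, Optn and Atg5. They are 10 of the 54532 genes in the table, each name matched 1 row, and all 10 passed the filter on low values. Their transcript levels were compared across RNA-seq libraries of 9 livers of male C57BL/6 mice aged 5 to 7 weeks, 3 in each of the NC, APAP and AMSC groups. The APAP group was fasted overnight, received a single intraperitoneal dose of 500 mg/kg acetaminophen (APAP), a drug whose overdose injures the liver, and was studied after 6 h. The AMSC group received the same fasting and dose, then adipose-derived mesenchymal stem cells (AMSCs) through the tail vein directly afterwards, and was studied at the same time. These cells had been grown from inguinal fat of C57BL/6 mice. The methods describe the overnight fast for the animals as a whole, ahead of APAP, and do not say separately how the NC group, labelled as control, was handled. Replicates are numbered 1, 2 and 3 in the NC and APAP groups and 2, 3 and 4 in the AMSC group.

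Autophagy encloses cytoplasm in a double membrane, the autophagosome, which fuses with lysosomes so that its content is degraded. The ULK1 kinase complex starts the process, the lipid kinase complex that holds Beclin 1 marks the forming membrane, WIPI proteins bind that mark, and the conjugate of ATG12, ATG5 and ATG16L1 couples ATG8 family proteins to the membrane, where receptors such as p62 (Sqstm1) and optineurin tether ubiquitin-tagged cargo. Mitophagy is the same route taken by mitochondria, either through the kinase PINK1 on depolarised mitochondria or through outer membrane receptors such as BNIP3 and NIX (Bnip3l). The liver uses autophagy in fasting, and the reactive metabolite of APAP binds mitochondrial proteins. The values below are transcript levels, which measure neither protein nor the rate of autophagy.

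Levels are FPKM, read counts per gene divided by gene length and a library factor. The lengths count all annotated exon bases of a gene, such as 7517 for Map1lc3b and 7065 for Becn1 but 2013 for Gabarapl1. Orders of level between genes depend on these lengths. Libraries held between 13418921 and 16210930 reads on genes, and the 10 genes between 100 reads (the lowest of Wipi1) and 32325 reads (the highest of Sqstm1) in a library. Hepatocyte markers led every library, with summed levels of 41233 to 44320 FPKM in the NC, 56053 to 64334 FPKM in the APAP and 52463 to 54775 FPKM in the AMSC group. These sums were carried mostly by Alb, and of the 7 hepatocyte markers 2 were higher and 1 was lower in the APAP than in the NC group. Cyp2e1, the enzyme that turns APAP into its reactive metabolite, was at 3605, 3247 and 3373 FPKM in the NC, 1541, 294.4 and 704.6 FPKM in the APAP and 3848, 3521 and 3488 FPKM in the AMSC livers. Summed neutrophil markers ranged from 0.308 to 1.81 FPKM in the NC, 7.35 to 34.2 FPKM in the APAP and 4.21 to 5.87 FPKM in the AMSC group. The 3 neutrophil markers that passed the filter, of 6, were S100a8, S100a9 and Retnlg, all under 1 FPKM in every NC liver. They passed only through their levels in the APAP-dosed groups, so their calls as higher in both are no separate support. Ly6g, Cxcr2 and Mmp9 stayed under 1 FPKM in all libraries. Erythrocyte markers ranged from 134.5 to 254 FPKM in the NC, 306 to 1406 FPKM in the APAP and 183 to 312 FPKM in the AMSC group, with 4 of 5 higher in the APAP than in the NC group, and cholangiocyte markers from 18.7 to 39.6, 57.4 to 97.3 and 27.3 to 50.5 FPKM, with 2 of 4 tested higher. Endothelial markers (14.7 to 32.7, 17.6 to 45.7 and 15.8 to 17.4 FPKM) had 1 of 5 higher in the APAP than in the NC group. Macrophage markers (90.2 to 174.7, 131 to 347 and 83.5 to 137 FPKM) had 0 of 7 called in each comparison. Of the stellate and stromal markers, 0 of 6 tested differed between the AMSC and APAP groups, and Thy1 was under 1 FPKM in all libraries. As this list mixes stellate cell and stromal markers, its count is no measure of injected AMSCs. In AMSC against APAP, 1 of 7 hepatocyte markers was higher, and 1 of 5 erythrocyte and 1 of 4 cholangiocyte markers were lower. In AMSC against NC, 3 of 7 hepatocyte and 1 of 4 cholangiocyte markers were higher, and 1 of 5 erythrocyte and 1 of 6 stromal markers were lower. Within the APAP group, replicate 2 had the lowest neutrophil, macrophage and erythrocyte sums (7.35, 131 and 306 FPKM), and it was also the highest of the group for Sqstm1. NC replicate 3 has another date in its title than the other libraries, and the title gives another number than the description from which its replicate number was taken. It had the highest macrophage and neutrophil sums of its group, 174.7 and 1.81 FPKM. The part of these cell types in the results below was not tested, and in whole liver fewer cells of a type and less RNA per cell cannot be told apart.

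APAP overdose went with higher transcript levels of Sqstm1, Ulk1 and Gabarapl1, 3 of the 10 genes. Their mean levels were 5.65, 3.02 and 2.13 times those of the NC group. In the fit without a replicate block, none of the other 7 genes passed the test, and 0 of the 10 were called as lower. The test was limma on log2(FPKM + 1), with a gene called at an adjusted p of at most 0.05 over the 9699 genes tested, and 25.9% of all genes were called in this comparison, 12.8% as higher. With a log2 fold change of at least 1 as an added condition, the 3 genes were still called, against 7.9% of all genes, 5.09% as higher. The 2 groups did not overlap for 6 of the 10 genes, against 43.2% of all genes. The median log2 fold change of the 10 genes was 0.16, and that of all genes was -0.00. With the replicate number as a block, 5 genes were called, adding Map1lc3b as higher and Optn as lower, where the number of NC replicate 3 is that of its description and not of its title. When libraries were scaled to equal totals, which moved the median of all genes to -0.22, 3 were called as higher and 2 (Optn and Atg5) as lower. The share of all genes called was not counted with the block or with equal totals, here or below. Counts under these settings thus have no such share to be set against.

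Between the AMSC and APAP groups, 0 of the 10 genes were called by limma, while 3.78% of all genes were, 1.64% as higher and 2.14% as lower. At an unadjusted p under 0.05 there were 2, Map1lc3b and Optn, both higher in the AMSC group, against 20.9% of all genes, and limma voom on recovered reads called Map1lc3b alone. These were also the genes for which these groups did not overlap, 2 of 10 against 27% of all genes. The log2 fold changes had a median of 0.16 over the 10 genes and of 0.01 over all genes.

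In the AMSC livers, 5 genes were above the NC group, namely Sqstm1, Ulk1, Gabarapl1, Map1lc3b and Bnip3l, which is 5 of 10 where 26% of all genes were called, 14.1% as higher. Sqstm1, Ulk1 and Gabarapl1 also had a log2 fold change of at least 1, 3 of the 10 against 6.01% of all genes, 3.92% as higher. Map1lc3b was just under this limit on the log2(FPKM + 1) scale (0.98), with a ratio of mean FPKM of 2.02. The groups did not overlap for 7 of the 10 genes, against 43.5% of all genes. When libraries were scaled to equal totals, which moved the median of all genes from 0.02 to -0.14, 4 were called as higher and 1 (Atg5) as lower. The 3 comparisons share groups pairwise, so they are not independent of each other.

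**Figure D1:**
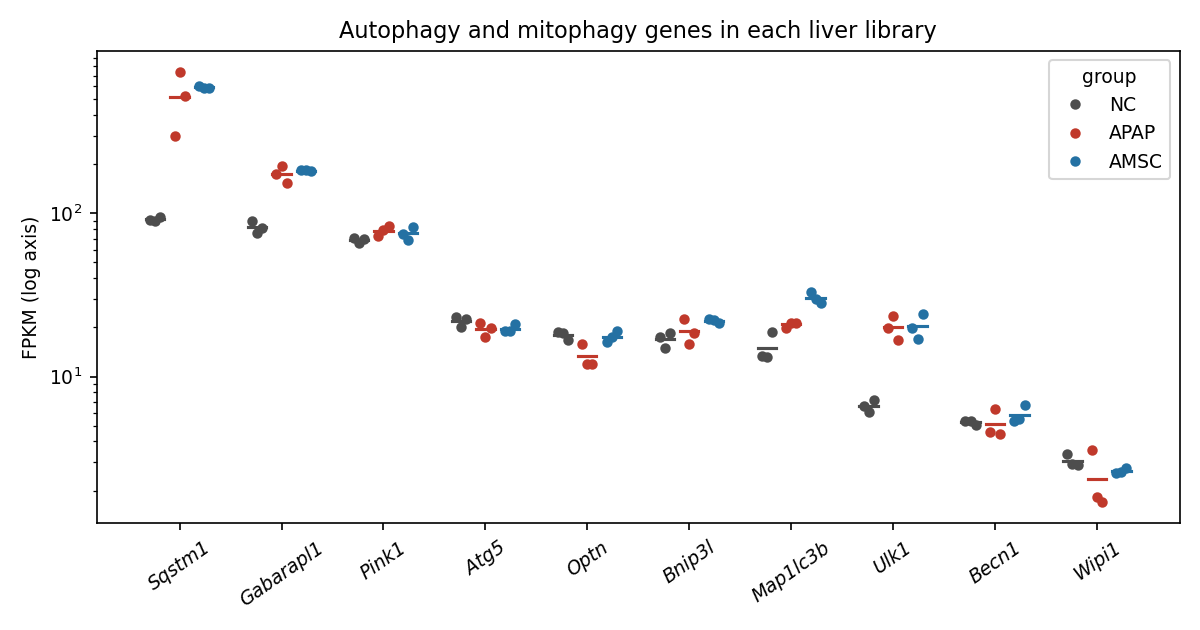
FPKM of the 10 genes (log axis) in each of the 3 NC, 3 APAP and 3 AMSC libraries (points), with the group mean as a short line and genes ordered by their mean in the NC group. Sqstm1, Gabarapl1 and Ulk1 lie higher in all 6 APAP-dosed livers than in any NC liver, and the 3 groups of Map1lc3b do not overlap, in the order NC, APAP, AMSC.

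**Figure D2:**
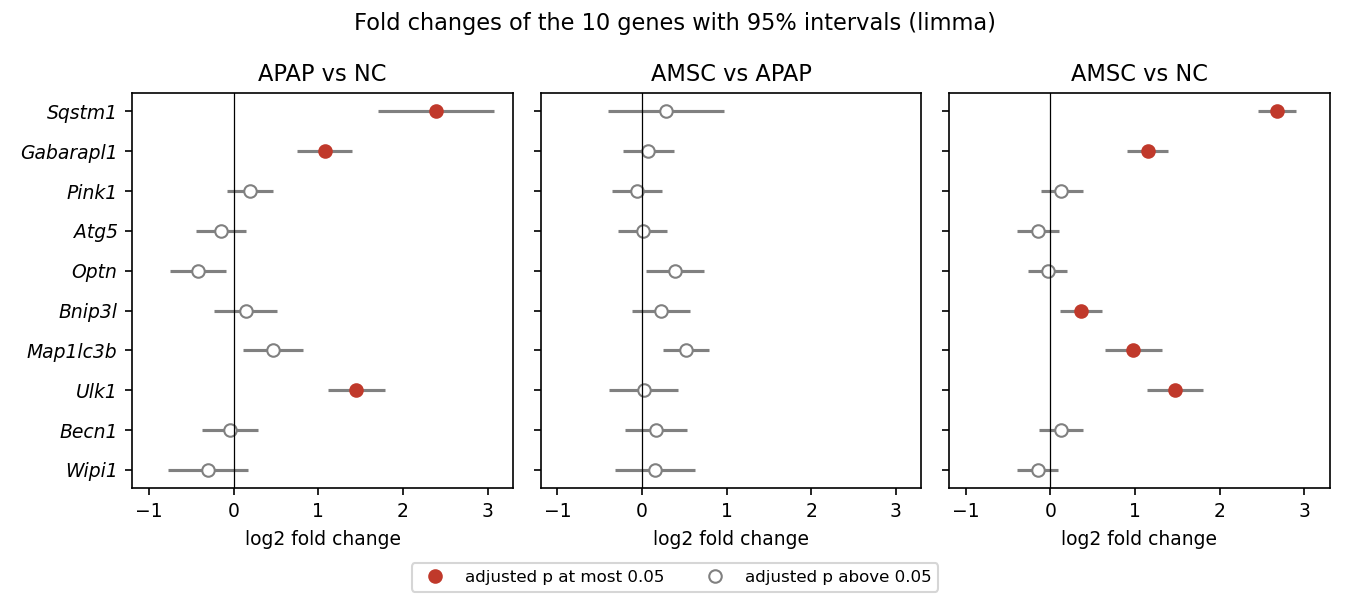
Log2 fold change (x axis) of the 10 genes in each comparison, with 95% intervals from limma; filled points have an adjusted p of at most 0.05. There are 3 filled points for APAP vs NC, 0 for AMSC vs APAP and 5 for AMSC vs NC.

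In the NC group, Sqstm1 (91.7 FPKM) and Gabarapl1 (82.3 FPKM) had the highest mean levels and overlapped each other, followed by Pink1 (68.5 FPKM) and, well below, Atg5 (21.9 FPKM). Optn, Bnip3l and Map1lc3b came next at 15.1 to 18.0 FPKM without separating neighbours, and Ulk1 (6.62 FPKM), Becn1 (5.24 FPKM) and Wipi1 (3.04 FPKM) were the lowest, each apart from its neighbour. In the AMSC group Map1lc3b was in the fourth place (30.4 FPKM), apart from both neighbours, and Ulk1 lay among Bnip3l, Atg5 and Optn, whose neighbouring ranges overlapped. The top 3 genes and the bottom pair, Becn1 and Wipi1, were the same in all groups. This order between genes is one of FPKM and rests on the gene lengths used.

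RefSeq start sites (GRCm38.p6) were matched for 8 of the 10 genes, all but Becn1 and Bnip3l, and the window from 250 bases before to 50 bases after each start was searched on both strands. The stretches below run from 100 bases before the start to 20 bases from it on, 5′ to 3′ on the gene's strand. They are shown for the genes whose transcripts were higher after APAP or after APAP with AMSCs, and for Atg5, which holds the one E-box found. Capitals mark the letters searched for.
Sqstm1, chr11:50210801-50210920, minus strand: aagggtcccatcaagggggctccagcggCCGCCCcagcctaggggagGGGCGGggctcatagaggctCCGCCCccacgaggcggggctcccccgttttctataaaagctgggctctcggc
Ulk1, chr5:110810062-110810181, minus strand: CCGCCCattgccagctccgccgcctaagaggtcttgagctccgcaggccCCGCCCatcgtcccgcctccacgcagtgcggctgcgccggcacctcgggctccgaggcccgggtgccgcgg
Gabarapl1, chr6:129533092-129533211, plus strand: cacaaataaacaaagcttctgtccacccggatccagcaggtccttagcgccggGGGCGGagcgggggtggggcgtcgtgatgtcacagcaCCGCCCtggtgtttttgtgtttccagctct
Map1lc3b, chr8:121590338-121590457, plus strand: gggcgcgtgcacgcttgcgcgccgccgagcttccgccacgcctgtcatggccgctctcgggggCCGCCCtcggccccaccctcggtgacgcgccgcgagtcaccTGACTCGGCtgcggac
Atg5, chr10:44268239-44268358, plus strand: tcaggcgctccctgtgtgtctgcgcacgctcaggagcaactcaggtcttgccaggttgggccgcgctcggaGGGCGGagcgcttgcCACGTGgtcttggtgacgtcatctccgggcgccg

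The E-box CACGTG, the core of the element bound by TFEB and TFE3, was found in 1 of the 8 windows, that of Atg5 at 14 to 9 bases before the start, against 7.15% of 32851 promoters. ACGTG, the core of the hypoxia response element, matched inside that E-box and nowhere else in the 8, against 19.6% of promoters. TGACNNNGC, the core of the antioxidant response element, was found in Map1lc3b at bases 5 to 13 after the start, 1 of 8 against 12.4% of promoters. The FOXO core GTAAACA and the ATF4 composite core TGATGNAA were in 0 of 8 windows, against 3.65% and 3.97% of promoters. The GC box GGGCGG, added after the sequences had been seen, was in all 8 windows against 35.7% of promoters, with 1 match each in Map1lc3b and Atg5, 3 in Sqstm1, 5 in Ulk1 and 9 in Wipi1. The genes that rose and those that did not thus both hold GC boxes in these windows. A match of letters is not a bound site, and elements farther away were not searched.

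Among the initiation and nucleation genes, Ulk1, the kinase that starts autophagosome formation (ENSMUSG00000029512, chr5:110784488-110810097), rose after APAP. It was at 6.64, 6.02 and 7.20 FPKM in the NC, 19.9, 23.4 and 16.8 FPKM in the APAP and 19.8, 16.9 and 24.2 FPKM in the AMSC livers. Both dosed groups lay far above the NC group and covered the same range. The log2 fold change was 1.45 ± 0.15 (SE, n = 3 per group, adjusted p = 0.000653, limma) in APAP and 1.47 ± 0.14 (adjusted p = 0.000329, limma) in AMSC against NC. AMSC and APAP differed by 0.02 ± 0.17 (adjusted p = 0.973, limma).

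Its paralog Ulk2 had differences of the opposite sign. It was at 13.1, 10.7 and 10.99 FPKM in the NC, 11.3, 7.40 and 7.93 FPKM in the APAP and 5.45, 6.59 and 6.95 FPKM in the AMSC livers. The AMSC livers lay below every other liver. Ulk2 fell in the AMSC against the NC group (log2 fold change -0.78 ± 0.13, adjusted p = 0.00338, limma), a call lost with the replicate block (0.0695). Its values of -0.37 ± 0.17 in APAP against NC (adjusted p = 0.152, limma; 0.0477 with the replicate block, 0.0289 with equal library totals and 0.0243 without APAP replicate 1) and -0.42 ± 0.17 in AMSC against APAP (adjusted p = 0.229, limma) did not pass. The ratio of mean levels was 0.545 in AMSC against NC for Ulk2 and 3.06 for Ulk1.

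Becn1, which encodes Beclin 1 of the lipid kinase complex (ENSMUSG00000035086, chr11:101285952-101302286), stood at 5.32, 5.33 and 5.07 FPKM in the NC, 4.57, 6.34 and 4.44 FPKM in the APAP and 5.37, 5.47 and 6.65 FPKM in the AMSC livers. The APAP livers spread across both other groups, and the AMSC livers lay just above the NC livers. The log2 difference from NC was -0.04 (95% interval -0.37 to 0.29, adjusted p = 0.851, limma) in APAP and 0.13 ± 0.11 (adjusted p = 0.439, limma) in AMSC, the latter turning to -0.04 when libraries were scaled to equal totals. Of its partners, Pik3c3, the lipid kinase itself, differed by -0.02 in APAP (adjusted p = 0.933, limma) and 0.16 in AMSC (adjusted p = 0.414, limma) against NC. Atg14, which directs the complex to autophagosome formation, was at 1.67 to 2.83 FPKM in the NC, 3.06 to 3.64 FPKM in the APAP and 3.92 to 4.63 FPKM in the AMSC group. The 3 groups did not overlap for Atg14. The difference passed in AMSC against NC (0.71 ± 0.15, adjusted p = 0.011, limma) but not in APAP against NC (0.38 ± 0.16, adjusted p = 0.114, limma). The call in AMSC was lost with all genes above 0 (adjusted p = 0.067, limma) and with the replicate block (0.0523).

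Wipi1, which binds the lipid made by that kinase (ENSMUSG00000041895, chr11:109573331-109611967), was the lowest of the 10 genes. It was at 3.33, 2.91 and 2.89 FPKM in the NC, 3.57, 1.83 and 1.70 FPKM in the APAP and 2.56, 2.599 and 2.76 FPKM in the AMSC livers. APAP replicate 1 was the highest of all 9 livers and the other 2 APAP livers were the lowest. The log2 difference of -0.30 ± 0.21 in APAP against NC did not pass (adjusted p = 0.313, limma), and without APAP replicate 1 it was -0.55 and passed (adjusted p = 0.0187, limma; 0.0187 to 0.615 over all alternatives). The AMSC livers lay just below the NC livers, with a difference of -0.15 (95% interval -0.39 to 0.09, adjusted p = 0.32, limma). Wipi2, its paralog, was at 6.63 to 7.23 FPKM in the NC, 7.69 to 10.1 FPKM in the APAP and 7.99 to 9.46 FPKM in the AMSC group and passed neither test against NC (adjusted p = 0.148 and 0.0928, limma).

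Atg5, a part of the conjugate that couples ATG8 proteins to lipid (ENSMUSG00000038160, chr10:44268358-44364291), was at 23.2, 20.01 and 22.5 FPKM in the NC, 21.4, 17.5 and 19.96 FPKM in the APAP and 18.9, 19.1 and 21.1 FPKM in the AMSC livers. The groups overlapped throughout. The log2 difference from NC was -0.15 (95% interval -0.45 to 0.14, adjusted p = 0.409, limma) in APAP and -0.15 (95% interval -0.39 to 0.10, adjusted p = 0.345, limma) in AMSC, and it passed as lower in both when libraries were scaled to equal totals (-0.40 with an adjusted p of 0.0457 and -0.33 with an adjusted p of 0.0399, limma). Over all alternatives the adjusted p of Atg5 ranged from 0.0457 to 0.734 in APAP and from 0.0399 to 0.819 in AMSC against NC. Atg12, which is joined to Atg5 in the conjugate, rose in APAP against NC from 11.3 ± 0.447 to 19.5 ± 2.34 FPKM (mean ± SD, n = 3, log2 fold change 0.74 ± 0.13, adjusted p = 0.00567, limma) and was at 17.0 ± 2.87 FPKM in the AMSC group (0.54 ± 0.13 against NC, adjusted p = 0.0208, limma; 0.0638 to 0.071 in 4 of the 6 fits without a replicate). Atg16l1, the remaining part, and Atg7, the enzyme that activates Atg12 and the ATG8 proteins, passed none of the comparisons, with log2 differences of 0.07 and 0.09 in APAP against NC.

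Of the ATG8 proteins, which sit on the autophagosome membrane and bind cargo receptors, Gabarapl1 (ENSMUSG00000030161, chr6:129533160-129542346) rose after APAP. It was at 89.8, 75.6 and 81.4 FPKM in the NC, 174.8, 195.9 and 154.0 FPKM in the APAP and 184.9, 183.4 and 181.2 FPKM in the AMSC livers. Every dosed liver was above every NC liver, and the AMSC values lay inside the range of the APAP group. The log2 fold change was 1.08 ± 0.14 (adjusted p = 0.00191, limma) in APAP and 1.15 ± 0.10 (adjusted p = 0.000236, limma) in AMSC against NC. The difference between AMSC and APAP was 0.07 ± 0.13 (adjusted p = 0.808, limma).

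Map1lc3b (ENSMUSG00000031812, chr8:121590361-121598760), which encodes the LC3B protein widely used to mark autophagosomes, had a different order of groups. It was at 13.3, 13.3 and 18.7 FPKM in the NC, 19.9, 21.4 and 21.3 FPKM in the APAP and 33.1, 29.7 and 28.4 FPKM in the AMSC livers. The 3 groups did not overlap, and the AMSC livers were the highest. The log2 difference from NC was 0.46 ± 0.15 in APAP (adjusted p = 0.0617, limma; 0.0449 with the replicate block, 0.0179 without NC replicate 3, and 0.0179 to 0.312 over all alternatives) and 0.98 ± 0.15 in AMSC (adjusted p = 0.00249, limma). AMSC against APAP gave 0.52 ± 0.12 (95% interval 0.25 to 0.79, unadjusted p = 0.0024, adjusted p = 0.0552, limma), which passed with voom on recovered reads (adjusted p = 0.0461), with equal library totals (adjusted p = 0.0388) and among protein-coding genes alone (adjusted p = 0.047), in a range of 0.0388 to 0.357 over all alternatives.

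The ATG8 family held 5 genes here, with a summed level of 260.5 ± 17.6 FPKM (mean ± SD, n = 3) in the NC, 379 ± 17.4 FPKM in the APAP and 392.3 ± 8.56 FPKM in the AMSC group. Gabarapl1 made up 31.7% ± 3.16 of the sum in the NC, 46.1% ± 4.75 in the APAP and 46.7% ± 0.544 in the AMSC group. Gabarap, its close paralog, went from 37.5% ± 0.841 to 27.9% ± 2.91 and 24.4% ± 0.435, although its own level of 97.7 ± 8.43, 105.6 ± 8.94 and 95.6 ± 0.837 FPKM passed none of the tests. By FPKM, Gabarap thus had the highest mean level of the family in the NC group and Gabarapl1 in the dosed groups. Map1lc3b made up 5.75% ± 0.797 in the NC, 5.50% ± 0.117 in the APAP and 7.74% ± 0.453 in the AMSC group, the smallest share in the NC group, while Gabarapl2 had the smallest in the dosed groups (7.86% ± 1.51, 5.44% ± 0.306 and 5.07% ± 0.187). The order of these shares rests on the gene lengths, 7517 bases for Map1lc3b and 2325 bases for Gabarapl2. By reads, Map1lc3b was above Gabarapl2 in the NC livers (1664, 1722 and 2414 against 707, 678 and 1076). Map1lc3a, which encodes LC3A, was at 40.4 to 48.4 FPKM in the NC and 59.6 to 65.3 FPKM in the AMSC group and rose between them (0.49 ± 0.11, adjusted p = 0.013, limma; 0.0591 without NC replicate 1 and 0.0925 with equal library totals), with 0.33 ± 0.17 in APAP against NC (adjusted p = 0.188, limma). Gabarapl2 stayed between 16.9 and 26.9 FPKM in all livers and passed none of the tests. Shares are descriptions of fixed sums and were not tested.

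**Figure D3:**
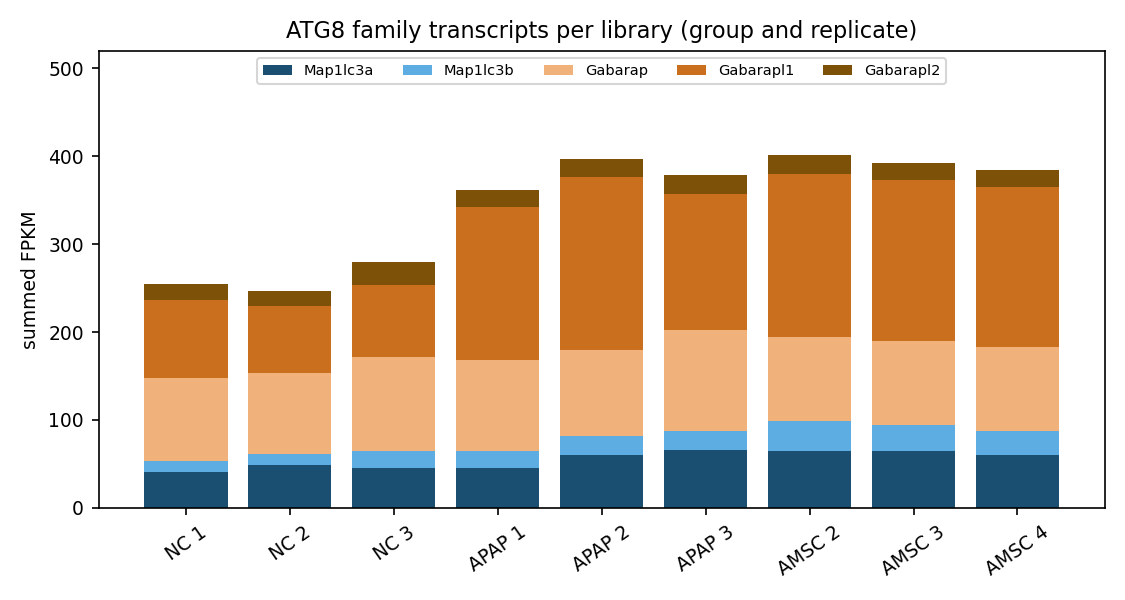
Summed FPKM of the 5 ATG8 family genes in each library (stacked bars; the x axis gives the group and replicate, the y axis starts at 0). The Gabarapl1 segment spans 75.6 to 89.8 FPKM in the NC and 154.0 to 195.9 FPKM in the dosed livers, and the Map1lc3a and Map1lc3b segments are also larger in the AMSC than in the NC livers.

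Sqstm1, which encodes the cargo receptor p62 (ENSMUSG00000015837, chr11:50199366-50210827), had the largest fold change of the 10 genes in both comparisons with NC. It was at 91.0, 89.4 and 94.8 FPKM in the NC, 299, 733 and 523 FPKM in the APAP and 606, 583 and 585 FPKM in the AMSC livers. All dosed livers were above all NC livers, and the APAP livers were widely spread (518 ± 217 FPKM, SD, n = 3) where the AMSC livers were close together (592 ± 12.9 FPKM, SD, n = 3). The log2 fold change was 2.39 ± 0.29 (95% interval 1.71 to 3.07, adjusted p = 0.00155, limma) in APAP and 2.68 ± 0.10 (95% interval 2.45 to 2.90, adjusted p = 2.29e-06, limma) in AMSC against NC. By size these ranked 115 and 59 among the 9699 genes, counted from the largest rise. AMSC against APAP gave 0.28 (95% interval -0.40 to 0.97, adjusted p = 0.652, limma), and -0.07 without APAP replicate 1.

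Optn, which encodes optineurin, a receptor for ubiquitin-tagged mitochondria and bacteria (ENSMUSG00000026672, chr2:5020642-5064051), had a further order of groups. It was at 18.6, 18.6 and 16.8 FPKM in the NC, 15.9, 11.9 and 12.0 FPKM in the APAP and 16.3, 17.4 and 18.9 FPKM in the AMSC livers. The APAP livers were below all others, and the NC and AMSC livers overlapped. APAP against NC gave -0.42 ± 0.14 (adjusted p = 0.0639, limma), which passed with the replicate block (adjusted p = 0.0425) and without APAP replicate 1 (-0.55, adjusted p = 0.0139), in a range of 0.0121 to 0.19 over all alternatives. AMSC against APAP gave 0.39 (95% interval 0.05 to 0.73, unadjusted p = 0.0302, adjusted p = 0.189, limma), and AMSC against NC -0.03 (95% interval -0.27 to 0.20, adjusted p = 0.836, limma).

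Nbr1, a receptor that resembles p62, was at 20.4 to 23.6 FPKM in the NC, 13.1 to 17.8 FPKM in the APAP and 15.2 to 18.3 FPKM in the AMSC group. It fell in AMSC against NC (-0.36 ± 0.11, adjusted p = 0.0489, limma) and in APAP the difference of -0.46 ± 0.14 missed the threshold (adjusted p = 0.0512, limma). Both values lay near the threshold. The call in AMSC was lost without any single NC replicate or AMSC replicate 2 or 4 (adjusted p 0.0612 to 0.17, limma). It was also lost with all genes above 0 (0.0981), all 9 libraries in one fit (0.079), no trend (0.0543) and the replicate block (0.613). Its range was 0.0071 to 0.613 over all alternatives. The difference in APAP passed with the replicate block (adjusted p = 0.0259, limma), equal library totals (0.00758), all 9 libraries in one fit (0.028) and quantile normalization (0.0455). It also passed with voom (0.044), protein-coding genes alone (0.044), genes averaging 5 FPKM or more (0.046) and without APAP replicate 1 (0.024). Over all alternatives its range was 0.00758 to 0.184. Tax1bp1, a further receptor for ubiquitin-tagged cargo, was at 12.6 to 14.3 FPKM in the NC, 14.3 to 15.9 FPKM in the APAP and 16.1 to 18.0 FPKM in the AMSC group and passed none of the tests. Of the summed level of Sqstm1, Optn, Nbr1 and Tax1bp1, Sqstm1 made up 63.3% ± 1.63 (SD, n = 3) in the NC, 91.1% ± 4.69 in the APAP and 92.1% ± 0.564 in the AMSC group, and Optn 12.4% ± 0.839, 2.75% ± 1.61 and 2.74% ± 0.242. The mean level of Optn itself was 18.0 FPKM in the NC, 13.3 FPKM in the APAP and 17.6 FPKM in the AMSC group. Its smaller share in the AMSC group thus reflects the larger sum. By their own levels, the receptor transcripts did not all change alike.

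Of the mitophagy genes, Pink1, the kinase that marks depolarised mitochondria (ENSMUSG00000028756, chr4:138313409-138326307), was at 70.6, 65.5 and 69.3 FPKM in the NC, 72.7, 79.3 and 83.3 FPKM in the APAP and 75.0, 69.1 and 82.0 FPKM in the AMSC livers. The APAP livers lay above the NC livers by a small margin, and the AMSC livers overlapped both. The log2 difference was 0.19 (95% interval -0.08 to 0.46, adjusted p = 0.262, limma) in APAP and 0.13 (95% interval -0.11 to 0.38, adjusted p = 0.387, limma) in AMSC against NC, and both turned negative, to -0.06, when libraries were scaled to equal totals.

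Bnip3l, which encodes the mitophagy receptor NIX (ENSMUSG00000022051, chr14:66985239-67008877), was at 17.5, 15.0 and 18.6 FPKM in the NC, 22.6, 15.7 and 18.4 FPKM in the APAP and 22.5, 22.3 and 21.3 FPKM in the AMSC livers. The AMSC livers were above the NC livers, and the APAP livers spanned both. It rose in AMSC against NC by 0.36 ± 0.11 (adjusted p = 0.0451, limma), a call that was lost without NC replicate 1 (adjusted p = 0.103) or 2 (0.156), without any single AMSC replicate (0.0853 to 0.115) and with equal library totals (0.241), in a range of 0.0354 to 0.414 over all alternatives. APAP against NC gave 0.14 (95% interval -0.23 to 0.51, adjusted p = 0.569, limma), or -0.11 with equal library totals, and AMSC against APAP 0.22 (95% interval -0.12 to 0.57, adjusted p = 0.449, limma).

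Bnip3, the paralog of Bnip3l and likewise an outer membrane receptor, was at 64.1, 70.1 and 89.7 FPKM in the NC, 74.8, 63.7 and 68.3 FPKM in the APAP and 122, 108 and 105 FPKM in the AMSC livers. The NC and APAP livers overlapped, and all AMSC livers lay above them. It rose in AMSC against APAP (0.69 ± 0.13, adjusted p = 0.0343, limma) and against NC (0.59 ± 0.14, adjusted p = 0.0195, limma), with -0.10 ± 0.16 in APAP against NC (adjusted p = 0.668, limma). The call against APAP was lost without APAP replicate 2 or 3 and without any single AMSC replicate, with adjusted p between 0.0808 and 0.11 and the fold change between 0.63 and 0.73. For the call against NC the same held without NC replicate 1 or 2 or AMSC replicate 2 (adjusted p 0.0667 to 0.0737) and with equal library totals (0.0777).

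**Figure D4:**
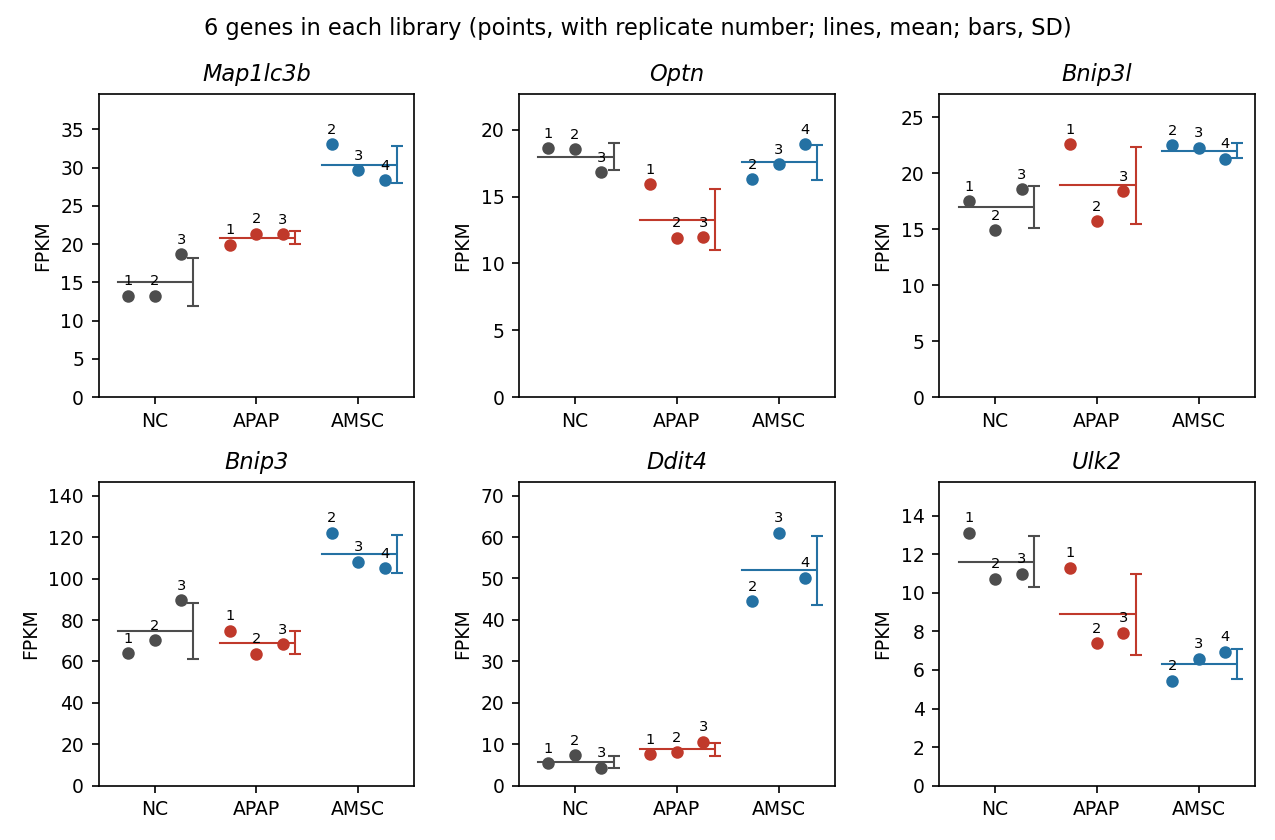
FPKM (y axis, from 0) of 6 genes by group, with each library as a point marked by its replicate number, the group mean as a line and the SD as a bar (n = 3). The AMSC livers are the highest for Map1lc3b, Bnip3 and Ddit4 and the lowest for Ulk2, and the APAP livers are the lowest for Optn.

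Beyond the 10 genes, 103 further genes of the pathway were taken from a list sorted by role, and 96 of them passed the filter. In APAP against NC, 15 were higher and 3 lower, 18.8% of the 96 beside the 25.9% of all genes, with a median log2 fold change of 0.11. With equal library totals the counts were 10 higher and 16 lower. In AMSC against APAP, 2 were higher and 0 lower (2.08% beside 3.78%), and in AMSC against NC, 25 were higher and 6 lower (32.3% beside 26%), or 17 and 12 with equal library totals. Of these calls, 11 of 18 in APAP against NC, 1 of 2 in AMSC against APAP and 19 of 31 in AMSC against NC held whichever single replicate was left out. Apart from the regulators, no role had more than 4 genes higher in APAP than in NC.

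Of the regulators, the largest role, 7 of 22 were higher and 0 lower in APAP against NC (31.8% beside the 25.9% of all genes), and 8 of 22 were higher and 0 lower in AMSC against NC (36.4% beside 26%), where membrane supply (4 of 8) and initiation (2 of 4) had larger shares. Sesn2, a stress-induced inhibitor of mTORC1, was at 1.17 to 1.48 FPKM in the NC, 11.2 to 17.7 FPKM in the APAP and 10.6 to 16.5 FPKM in the AMSC group. Its log2 fold change against NC was 2.64 ± 0.18 in APAP (adjusted p = 0.000122, limma) and 2.68 ± 0.16 in AMSC (adjusted p = 2.96e-05, limma). Trib3, a pseudokinase that inhibits AKT, was at 1.497 to 2.46 FPKM in the NC, 7.82 to 18.1 FPKM in the APAP and 14.2 to 29.2 FPKM in the AMSC group, a rise of 2.21 ± 0.27 (adjusted p = 0.00163, limma) and 3.06 ± 0.26 (adjusted p = 0.000177, limma). Foxo3, a transcription factor of autophagy genes, went from 3.91 to 6.63 FPKM in the NC to 16.9 to 26.6 FPKM in the APAP group (1.85 ± 0.21, adjusted p = 0.00114, limma) and 22.3 to 30.1 FPKM in the AMSC group (2.20 ± 0.18, adjusted p = 0.000153, limma). Tfeb, the factor best known for lysosomal genes, was low throughout, at 1.78 to 2.35 FPKM in the NC, 1.30 to 1.96 FPKM in the APAP and 0.828 to 1.61 FPKM in the AMSC group. Its difference from NC was -0.21 ± 0.14 in APAP (adjusted p = 0.313, limma) and -0.49 ± 0.15 in AMSC (adjusted p = 0.0509, limma). The other 4 regulators called in APAP against NC, Tfe3, Flcn, Fnip1 and Foxo1, are named after their values were seen. Tfe3, the relative of Tfeb, was at 1.83 to 2.13 FPKM in the NC, 2.94 to 3.68 FPKM in the APAP and 3.74 to 4.15 FPKM in the AMSC group. It rose in APAP (0.51 ± 0.12, adjusted p = 0.0184, limma; 0.0598 to 0.0819 without NC replicate 1, NC replicate 2 or APAP replicate 2) and in AMSC against NC (0.71 ± 0.10, adjusted p = 0.00228, limma). Flcn and Fnip1, which encode the partners folliculin and FNIP1, rose by 1.23 and 0.81 in APAP (adjusted p = 0.00191 and 0.00938, limma) and by 1.01 and 1.18 in AMSC (0.00282 and 0.000196). Foxo1 rose by 0.73 in APAP (adjusted p = 0.0411, limma; 0.0774 to 0.132 in 4 of the 6 fits without a replicate) and by 0.99 in AMSC (0.00515).

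Ddit4, which encodes REDD1, another inhibitor of mTORC1, set the AMSC group apart from both others. It was at 5.43, 7.35 and 4.37 FPKM in the NC, 7.60, 8.14 and 10.6 FPKM in the APAP and 44.6, 61.1 and 50.2 FPKM in the AMSC livers. The lowest AMSC liver was above the highest APAP liver by a wide margin. Its mean level in the AMSC group was 5.90 times that in the APAP group, with a log2 fold change of 2.43 ± 0.17 (adjusted p = 0.00115, limma), and 2.99 ± 0.18 against NC (adjusted p = 2.97e-05, limma). APAP against NC gave 0.56 ± 0.19 (adjusted p = 0.0703, limma). With Bnip3, Ddit4 was one of the 2 genes of the 96 called between the AMSC and APAP groups.

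The genes named for the remaining roles in this paragraph, other than Retreg1, Atg12, Atg14, Ulk2 and Bnip3, were chosen after their values had been seen. Of all genes, 25.9% were called in APAP against NC (12.8% as higher) and 26% in AMSC against NC (14.1% as higher). The share called in these roles was at most 25% (membrane supply) in APAP against NC, with 23.8% for fusion and lysosome. In AMSC against NC it ranged from 19% (fusion and lysosome) to 50% (membrane supply and initiation). Of 9 further cargo receptors tested, Retreg1, a receptor for endoplasmic reticulum also known as FAM134B, rose from 12.3 ± 0.944 FPKM (SD, n = 3) in the NC to 75.1 ± 22.4 FPKM in the APAP (2.47 ± 0.22, adjusted p = 0.000384, limma) and 81.0 ± 3.61 FPKM in the AMSC group (2.63 ± 0.10, adjusted p = 2.47e-06, limma). Stbd1, a glycogen-binding receptor, fell in APAP against NC (-0.73 ± 0.11, adjusted p = 0.00365, limma). Of 8 genes for membrane supply and lipid transfer, 2 were higher in APAP against NC, the lipid transfer gene Atg2a (0.90) and Wdr45 of the WIPI family (0.58). In AMSC against NC, 4 of these 8 were higher, adding Wdr45b (0.46) and Vmp1 (0.39). The call of Wdr45 in APAP was lost in 3 of the 6 fits without a replicate (adjusted p 0.0628 to 0.0812), and those of Wdr45b and Vmp1 in AMSC in 4 (0.0522 to 0.075) and 5 (0.0715 to 0.156), and also with equal library totals (0.0642, 0.091 and 0.206). Of 9 conjugation genes, Atg12 was higher and the protease gene Atg4c lower in APAP against NC (-0.55), and the same held in AMSC against NC, where Atg4a was also lower (-0.38). Without a replicate, the call of Atg4c in APAP was lost in 3 of 6 fits and that of Atg4a in all 6 (adjusted p 0.0569 to 0.156). Of 21 fusion and lysosome genes, 4 were higher in APAP against NC, among them the cathepsin genes Ctsl (1.30 ± 0.26, adjusted p = 0.00997, limma), Ctsb (0.43) and Ctsa (0.40), and 1 was lower, Stx17, which encodes the fusion syntaxin of autophagosomes (-0.62 ± 0.13, adjusted p = 0.012, limma). Ctsb passed in none of the 6 fits without a replicate (adjusted p 0.062 to 0.147) nor with equal library totals (0.34), Ctsa was lost in 4 of the 6 (0.0762 to 0.154) and with equal library totals (0.37), and Stx17 in 2 (0.0537 to 0.0582). Of the 4 initiation and 7 nucleation genes, 0 were called in APAP against NC, and in AMSC against NC Rb1cc1 (0.38) and Atg14 were higher and Ulk2 and Rubcn (-0.68) lower. Of 13 mitophagy genes tested, 0 were called in APAP against NC (adjusted p from 0.0514, limma), and 4 were higher in AMSC against NC, Marchf5 (0.76), Tbk1 (0.71), Bnip3 and Usp15 (0.38). The calls of Rb1cc1 and Usp15 were lost in 5 and 6 of the 6 fits without a replicate.

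**Figure D5:**
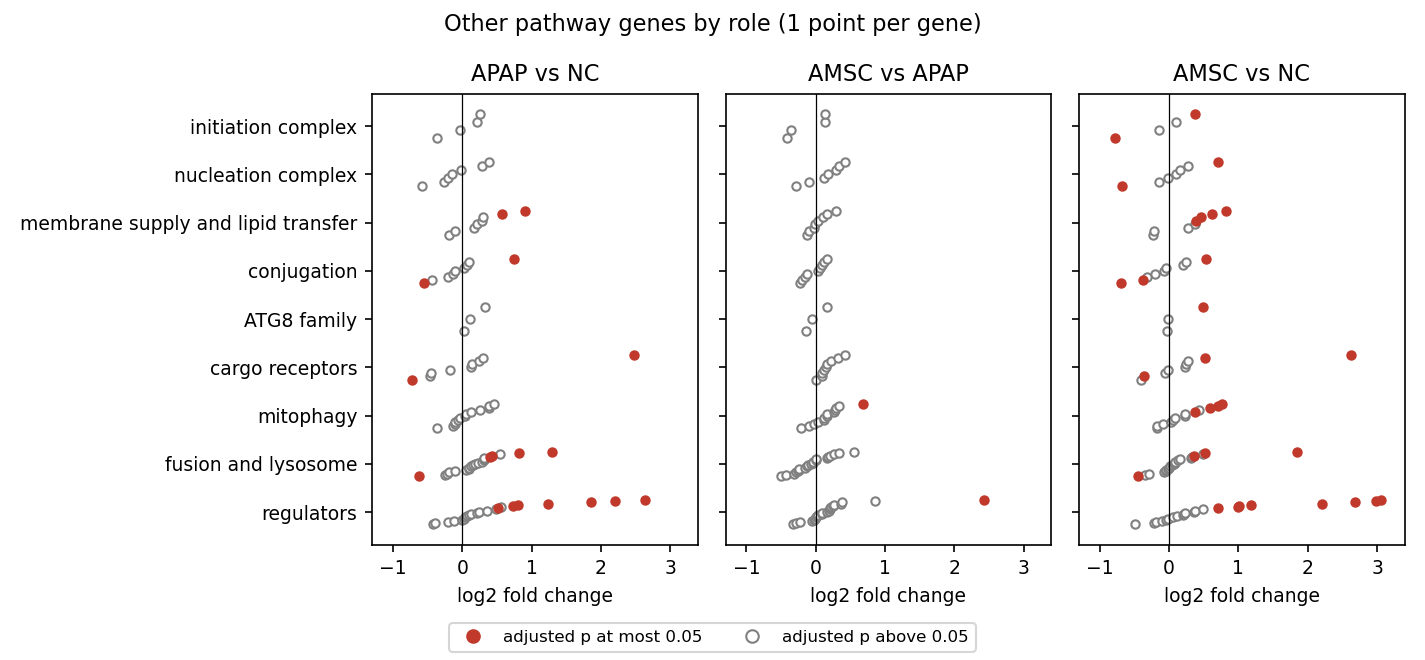
Log2 fold change (x axis) of the 96 further pathway genes tested, 1 point per gene, by role (y axis) in each comparison; filled points have an adjusted p of at most 0.05. All filled points of the regulators lie to the right of 0, and the single far point in AMSC vs APAP is Ddit4 at 2.43.

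For the 3 members with the largest fold changes in APAP against NC, the genes with the most similar course over the 9 libraries were found by the mean absolute difference of log2(FPKM + 1), each gene centred on its NC mean. Brackets give this difference, then the mean FPKM in the NC and APAP groups, and for the 3 members these means alone. For Sqstm1 (91.73, 518.4) these were Nfkbiz (0.10, 0.9615, 8.66), Retreg1 (0.10, 12.3, 75.08) and Zfand5 (0.14, 6.203, 41.39). For Ulk1 (6.622, 20) they were Fbxo34 (0.13, 3.954, 12.86), Rhob (0.14, 14.05, 41) and Clpx (0.14, 21.56, 62.08). For Gabarapl1 (82.27, 174.9) they were Rock2 (0.06, 1.174, 3.719), Desi2 (0.10, 1.81, 4.65) and Fbxo30 (0.11, 1.815, 5.804). This scale understates the change of low genes, so likeness here does not mean the same ratio of levels. All genes listed for Sqstm1 and Gabarapl1 rose by larger factors than the member itself. For Ulk1, Fbxo34 did, and Rhob and Clpx did not. The libraries are shared by all genes, and no test was made of this likeness.

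Some exons of these genes overlap those of a gene on the other strand, and whether the counting used strand is not given in the sources used here. The share of exon bases was 17.3% for Sqstm1 (with Mrnip, at 0.313 to 1.86 FPKM), 28.3% for Gabarapl1 (with 1700101I11Rik, at most 0.239 FPKM), 43.9% for Becn1 (with Cntd1, at most 0.0505 FPKM) and 0.772% for Map1lc3b (with Zcchc14, at 3.17 to 5.26 FPKM). The overlapping genes were lower than the gene they overlap in each case. How reads on shared exon bases were counted is not known, so this does not show that the levels given are unaffected.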

How the data were processed

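The table deposited by the authors gives FPKM for 54532 genes in 9 liver libraries, prepared with the SMARTER mRNA-Seq kit, and the gene lengths used. The submitters' processing notes name GRCm38 (mm10); aligner, counting program and strandedness are not given in the sources used here. Of 54495 gene identifiers shared with GENCODE vM21, 98.33% had the same start and end. Multiplied by length, 100% of the values lay within 0.1 of a whole number of library-specific steps, so reads could be recovered; the denominators followed median-of-ratios size factors.

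Groups came from the labels. The fit used limma 3.58.1 (lmFit, eBayes with trend) in R 4.3.3 on log2(FPKM + 1) of the 9699 genes that averaged 1 FPKM or more, 2 groups per fit, with Benjamini-Hochberg adjustment over all 9699. Fold changes on this scale understate the change of low genes. DESeq2, the study's own test, was not used here, since the deposited unit is FPKM. Of methods for counts, voom alone was run, on the recovered reads. The steps were tested on simulated data. In APAP against NC, libraries with the same number deviated together from their groups, with correlations over genes of 0.213, 0.16 and 0.378. This is a hint of pairing from the data and not from the design, and these correlations are not independent of each other. The calls given first come from fits without the replicate block, which was run as an alternative. The number of NC replicate 3, on which the correlation of 0.378 rests, is from its description, and its title gives another.

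The 10 genes, the pathway list and the markers were chosen with earlier results of these data known. Named in full were the 10 genes, stated paralogs and partners, and, per comparison, up to 4 further called genes with the largest fold change and groups that did not overlap. Alternatives were another pseudocount (0.1), 2 other filters on low values, equal library totals, quantile normalization, all 9 libraries in one fit, no trend, voom, the replicate block, protein-coding genes alone, a minimum fold change, and each replicate left out. A planned protein comparison was not run, and 1 gene of the pathway list is not reported here. Plots were made in matplotlib 3.10.9 (Python 3.11.15, numpy 2.4.6, pandas 2.3.3).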

Additional observations from a re-analysis of the deposited data

How the results depend on the processing

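Over the alternatives, 436 fold changes of the 10 genes kept direction and side of the threshold, 13 passed only under the alternative, 11 no longer passed and 17 reversed sign, each of the last at an adjusted p of 0.627 or more in limma. In APAP against NC, 5 of the 10 genes were called with equal library totals, with all 9 libraries in one fit and with the replicate block, and 3 to 5 when a replicate was left out (5 without APAP replicate 1). In AMSC against APAP, 1 (Map1lc3b) was called with equal library totals, with voom and among protein-coding genes, and 0 whichever replicate was left out. In AMSC against NC, 3 had a log2 fold change of at least 1, and 4 to 5 were called when a replicate was left out. Of the 96 further genes, 6, 1 and 8 had that fold change in APAP against NC, AMSC against APAP and AMSC against NC. With the replicate block these were 26, 1 and 9 calls; only numbers 2 and 3 are shared with the AMSC group, and correlations there were -0.104 to -0.309, so no pairing was assumed. For AMSC against APAP, 1 was also called with all genes above 0. Leaving out a replicate gave 12 to 26 calls (12 without NC replicate 1, NC replicate 2 or APAP replicate 2), 1 to 2 and 21 to 31. The call of Bnip3l in AMSC against NC was also lost with all genes above 0 (adjusted p = 0.0825), quantile normalization (0.0576), all 9 libraries in one fit (0.0968), no trend (0.0507) and the replicate block (0.414). The cause of these changes was not tested. Apart from the minimum fold change, the share of all genes called was not counted under the alternatives.

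Signs reversed with equal library totals for Becn1 in AMSC against NC (-0.0391), Pink1 in APAP against NC (-0.0647), AMSC against APAP (0.00618) and AMSC against NC (-0.0585), and Bnip3l in APAP against NC (-0.11). With the replicate block they reversed for Sqstm1 (-0.0585) and Ulk1 (-0.109) in AMSC against APAP. Leaving out a replicate gave in AMSC against APAP -0.0662 to 0.579 for Sqstm1, -0.0149 to 0.158 for Gabarapl1, -0.111 to 0.136 for Ulk1, -0.12 to 0.00197 for Pink1 and -0.067 to 0.07 for Atg5. In AMSC against NC it gave -0.0869 to 0.0151 for Optn, and in APAP against NC -0.18 to 0.0358 for Becn1 and -0.203 to 0.0367 for Bnip3.

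Depth limits Wipi1 most, at 100 to 245 reads per library. With 3 livers per group, an adjusted p above the threshold does not show equal levels.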
